A study of Rattus norvegicus with 20 samples.

Results

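The rat microRNAs (miRNAs) miR-463, miR-465, miR-471 and miR-741 are described here across 2 stages of male germ cells and 2 treatments. Their members were chosen by name alone, as every array entry for either arm of these 4 precursors, which gave 8 of the 677 rat miRNAs on the array. Male Sprague-Dawley rats were given cyclophosphamide, an alkylating anticancer drug, by gavage at 6 mg/kg on 6 days a week for 4 weeks, and control rats were given saline on the same schedule. Pachytene spermatocytes and round spermatids were separated by unit gravity sedimentation (the STA-PUT method), a sort by size and density whose purity the labels do not give. The 4 groups, each cell type from saline rats and from cyclophosphamide rats, had 5 arrays each. Arrays carry rat numbers, and 2 cyclophosphamide pachytene arrays share the number 16; by a year in their labels one is named earlier rat 16 and the other later rat 16. The labels do not say that arrays came from separate animals beyond these numbers, so p-values measure the spread between arrays. The labels give no age.

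A miRNA hairpin is cut into a 5p and a 3p arm, and usually 1 of them is loaded into an Argonaute protein, where its seed (bases 2 to 8) pairs with target messages. The 4 genes lie in an X-linked run of fast-evolving miRNA genes, the miR-506 family region, that is known for expression in testis. Pachytene spermatocytes are in meiotic prophase, when most protein-coding genes of the X chromosome are silenced, and the haploid round spermatids come after it.

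All 8 arms matched the RefSeq miRNA table (build GRCr8), and all lie on the minus strand of chromosome X. They are shown because the arms differed in detection and in change between cell types. The seed is in capitals and each is read 5′ to 3′.
miR-463-3p: uGAUAGACgccaauuuggguag
miR-465-3p: uGAUCAGUgccuuucugaguag
miR-471-3p: uGAAAGGUgccauacuaugu
miR-741-3p: aAAGAUGCcacgcuauguagau
miR-463-5p: uACCUAAUuuguuguccauca
miR-465-5p: uAUUUAGAacggugcuggugug
miR-471-5p: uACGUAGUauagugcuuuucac
miR-741-5p: uACAUAGAuugguaccuauca

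No seed was shared between members. Of the 693 mature rat miRNAs in the table, only miR-376c-3p had a member's seed, that of miR-741-5p. All 4 of the 3p arms hold GCC, as do 23.67% of mature miRNAs in the table. The 3p arms of miR-471 and miR-741 both hold CUAUGU, found in 8 of the 693 (1.15%). In pairwise alignment the 3p arms of miR-463 and miR-465 were 69.6% identical, as were the 5p arms of miR-463 and miR-741. The hairpins of miR-471 and miR-465, the precursors for which both arms could be compared, are given with the arms in capitals.
miR-471 hairpin: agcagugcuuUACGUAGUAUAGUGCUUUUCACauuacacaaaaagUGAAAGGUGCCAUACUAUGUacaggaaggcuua
miR-465 hairpin: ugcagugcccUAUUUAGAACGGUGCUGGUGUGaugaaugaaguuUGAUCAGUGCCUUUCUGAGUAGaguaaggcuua
These hairpins were 62.5% identical, and the other pairs of the 4 hairpins lay between 53.0% and 62.5%.

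Signals are log2 values of the Agilent processed signal scaled between arrays, with a floor of 3.61. Feature Extraction detected 181 to 281 miRNAs per array. A miRNA entered the limma test if 1 group or more had it detected on all 5 arrays, which held for 217, with Benjamini-Hochberg adjustment over all 217 and a threshold of 0.05. Germ cell miRNAs were present in all groups: 5 of the 8 array entries of miR-34b, miR-34c, miR-449a and miR-449c were detected on all 20 arrays. Over all 217, 57 were higher and 48 lower in round spermatids in saline, and 67 and 50 with cyclophosphamide. The counts for markers of other cells are given beside these. Of 8 tested miRNAs of endothelial, muscle and mesenchymal cells (such as miR-143-3p and miR-145-5p), 6 were higher in round spermatids in each treatment. The endothelial miR-126a-3p differed by -0.73 in saline (adjusted p = 0.05833 in limma) and was lower with cyclophosphamide (-0.83, adjusted p = 0.02941). The summed log2 signal of the 10 on the array ran from 9.55 to 10.58 in saline pachytene spermatocytes, 9.23 to 10.05 with cyclophosphamide, 11.25 to 11.85 in saline round spermatids and 10.98 to 11.91 with cyclophosphamide. Of 10 blood cell entries, 4 were tested: 1 was higher in round spermatids in saline and 2 with cyclophosphamide. Their summed log2 signal was 7.37 to 7.71 in pachytene spermatocytes of both treatments and 7.85 to 8.21 in round spermatids. Of 3 tested Sertoli cell miRNAs, 1 was higher and 1 lower in each treatment, with summed log2 signals of 8.64 to 9.02 in pachytene spermatocytes and 8.15 to 9.29 in round spermatids. Of 4 tested spermatogonial miRNAs, miR-146a-5p was higher in round spermatids, and 3 were lower in saline and 2 with cyclophosphamide; the summed log2 signal of the 8 on the array was 9.40 to 9.76 in pachytene spermatocytes and 9.37 to 9.51 in round spermatids. The part of these other cells in the cell type differences below was not tested. In bulk RNA, fewer cells of a type and less RNA per cell cannot be told apart.

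The arms fell into 3 groups by detection. The arms miR-463-3p, miR-741-3p, miR-471-3p and miR-471-5p were detected on all 20 arrays. The arm miR-465-3p was detected on 19, all but the cyclophosphamide round spermatid array of rat 14. Detection of the other 5p arms was partial or lacking. The arm miR-465-5p was detected on 9 of 10 pachytene arrays and 2 of 10 round spermatid arrays, and miR-463-5p on 7 pachytene arrays and no round spermatid array. Round spermatid arrays detected 181 to 250 miRNAs of any kind and pachytene arrays 205 to 281. The detection counts of these dim arms alone therefore do not give a cell type difference. No array detected miR-741-5p. Detection over the 5 cyclophosphamide pachytene arrays alone admitted miR-465-5p to the test, so 6 of the 8 members were tested and miR-463-5p and miR-741-5p were not.

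Between cell types, the 3p arms of all 4 precursors were lower in round spermatids than in pachytene spermatocytes, in saline and in cyclophosphamide rats. The exception was miR-465-3p in saline with normexp background correction, which differed by 0.34 where the median of all 217 was 0.44. With the scaling used here, the differences were 0.47 to 0.74 on the log2 scale (1.38-fold to 1.67-fold). Neither tested 5p arm passed the threshold. Thus 4 of 6 tested members were called lower in each treatment, where 22.1% of all 217 miRNAs were called lower in saline and 23% with cyclophosphamide. The median difference of the 6 was -0.54 in saline and -0.52 with cyclophosphamide, beside 0.02 and 0.06 over all 217.

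**Figure D1:**
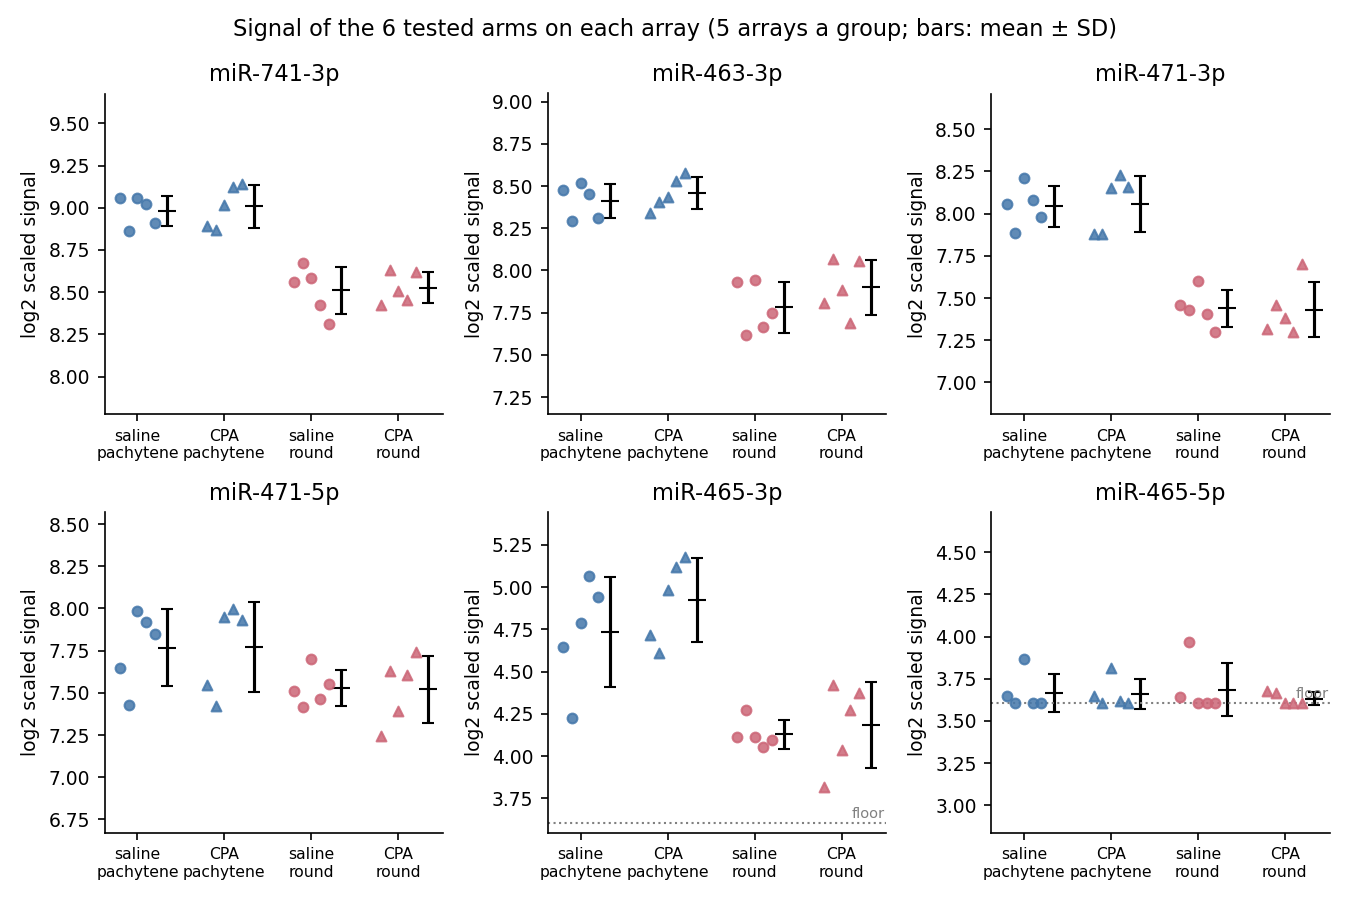
Log2 scaled signal (vertical axes, each spanning the same range) of the 6 tested arms on each array, by group (CPA, cyclophosphamide), with the mean and SD of 5 arrays as bars and the floor of 3.61 as a dotted line. The pachytene and round spermatid points of miR-741-3p, miR-463-3p and miR-471-3p do not overlap, while those of miR-471-5p do and those of miR-465-5p lie at or near the floor. Overlap was not counted for the other tested miRNAs.

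The arm miR-463-3p read 8.48, 8.29, 8.52, 8.45 and 8.31 in saline pachytene spermatocytes of rats 13, 16, 25, 26 and 28. In saline round spermatids of rats 15, 16, 17, 25 and 28 it read 7.93, 7.62, 7.94, 7.66 and 7.75. Every round spermatid array was below every pachytene array. How many of all 217 miRNAs separated in this way was not counted, so separation here and below does not set an arm apart. The means were 8.41 ± 0.10 (SD, n = 5) and 7.78 ± 0.15 (SD, n = 5), a limma difference of -0.63 ± 0.09 (SE), or 1.55-fold lower, with adjusted p = 5.755e-06. With cyclophosphamide, pachytene spermatocytes of rats 7, 15, earlier 16, later 16 and 29 gave 8.34, 8.40, 8.44, 8.53 and 8.58. Round spermatids of rats 14, 15, 16, 25 and 26 gave 7.81, 8.07, 7.88, 7.69 and 8.06. The groups again did not overlap. The limma difference was -0.56 ± 0.09 (SE), with adjusted p = 2.436e-05. The second probe of miR-463-3p differed by -0.71 in saline and by -0.65 with cyclophosphamide.

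The signal of miR-741-3p, in the same order of rats, was 9.06, 8.86, 9.06, 9.02 and 8.91 in saline pachytene spermatocytes and 8.56, 8.67, 8.58, 8.43 and 8.31 in saline round spermatids. The lowest pachytene array and the highest round spermatid array were rat 16 in each case. The limma difference was -0.47 ± 0.08 (SE; means 8.98 ± 0.09 and 8.51 ± 0.14, SD, n = 5 each), with adjusted p = 6.192e-05. With cyclophosphamide the arrays read 8.89, 8.87, 9.02, 9.12 and 9.14 for pachytene spermatocytes and 8.43, 8.63, 8.50, 8.46 and 8.62 for round spermatids. There the groups stood apart in the same direction, with a limma difference of -0.48 ± 0.08 (SE) and adjusted p = 4.706e-05. The second probe of miR-741-3p differed by -0.44 and -0.48, close to the first.

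For miR-471-3p, saline pachytene arrays read 8.06, 7.88, 8.21, 8.08 and 7.98, and saline round spermatid arrays 7.46, 7.43, 7.60, 7.40 and 7.30. All round spermatid arrays lay below all pachytene arrays, with a limma difference of -0.60 ± 0.09 (SE; means 8.04 ± 0.12 and 7.44 ± 0.11, SD, n = 5 each) and adjusted p = 2.042e-05. Cyclophosphamide pachytene arrays read 7.88, 7.88, 8.15, 8.23 and 8.16, and round spermatid arrays 7.32, 7.46, 7.38, 7.30 and 7.70. The highest round spermatid array, rat 26, was still below the lowest pachytene array. The limma difference was -0.63 ± 0.09 (SE), with adjusted p = 1.262e-05. The size of the change depended on the probe. The 3 probes of miR-471-3p differed by -0.60, -1.02 and -1.34 in saline from the brightest to the dimmest, and by -0.63, -1.06 and -1.38 with cyclophosphamide. On each probe all 10 pachytene arrays were above all 10 round spermatid arrays.

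The arm miR-465-3p was dim. In saline it read 4.65, 4.22, 4.79, 5.07 and 4.94 for pachytene spermatocytes and 4.11, 4.27, 4.11, 4.05 and 4.09 for round spermatids. The pachytene array of rat 16 fell below the round spermatid array of rat 16, so the groups overlapped. The limma difference was -0.60 ± 0.15 (SE; means 4.73 ± 0.33 and 4.13 ± 0.08, SD, n = 5 each), with adjusted p = 0.002359. With cyclophosphamide the arrays read 4.72, 4.61, 4.99, 5.12 and 5.18 for pachytene spermatocytes and 3.81, 4.42, 4.03, 4.27 and 4.37 for round spermatids. These groups did not overlap, and the limma difference was -0.74 ± 0.15 (SE), with adjusted p = 0.0003588. The second probe of miR-465-3p lay close to the floor and differed by -0.08 in saline and -0.16 with cyclophosphamide. With another background correction (normexp) the saline difference of miR-465-3p was 0.34, with adjusted p = 0.3132.

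The arm miR-471-5p read 7.65, 7.43, 7.99, 7.92 and 7.85 in saline pachytene spermatocytes and 7.51, 7.42, 7.70, 7.46 and 7.55 in saline round spermatids. With cyclophosphamide it read 7.55, 7.42, 7.95, 7.998 and 7.93, and then 7.24, 7.63, 7.39, 7.60 and 7.74. The groups overlapped in both treatments. The limma differences were -0.24 ± 0.13 (SE), with adjusted p = 0.1394 and a 95% interval from -0.51 to 0.04 in saline, and -0.25 ± 0.13 (SE), with adjusted p = 0.1151 and an interval from -0.52 to 0.02 with cyclophosphamide. The pachytene arrays split by slide: the 4 on slide 1 read 7.42 to 7.65 and the 6 on slide 2 read 7.85 to 7.998. With slide as a block in limma the difference was -0.29 in saline (adjusted p = 0.03682) and -0.19 with cyclophosphamide (adjusted p = 0.1158). Within slide 2, which holds 1 round spermatid array a treatment, it was -0.50 in saline and -0.36 with cyclophosphamide. Within slide 1 it was -0.03 in saline, with 1 round spermatid array, and -0.06 with cyclophosphamide, with 3. In limma miR-471-5p was called lower in saline without the pachytene array of rat 16 (-0.32, adjusted p = 0.04573), and with cyclophosphamide without the pachytene array of rat 15 (-0.34, adjusted p = 0.03389). With array weights it was called lower with cyclophosphamide (-0.40, adjusted p = 0.009442) but not in saline. Its second probe differed by -0.38 in saline and -0.34 with cyclophosphamide. The mean over both probes gave -0.31 (adjusted p = 0.05695) and -0.295 (adjusted p = 0.06282) in limma.

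The signal of miR-465-5p was at or near the floor throughout, with group means of 3.67, 3.66, 3.69 and 3.63 and a highest array of 3.97. Its limma differences were 0.02 ± 0.08 (SE) in saline and -0.03 ± 0.08 (SE) with cyclophosphamide, and they depend on the floor. The arm miR-463-5p reached at most 3.99, in cyclophosphamide pachytene spermatocytes of rat 29. The bound its signal allows is under 1-fold, so no fold is given. For the undetected miR-741-5p all 20 arrays were at the floor.

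**Figure D2:**
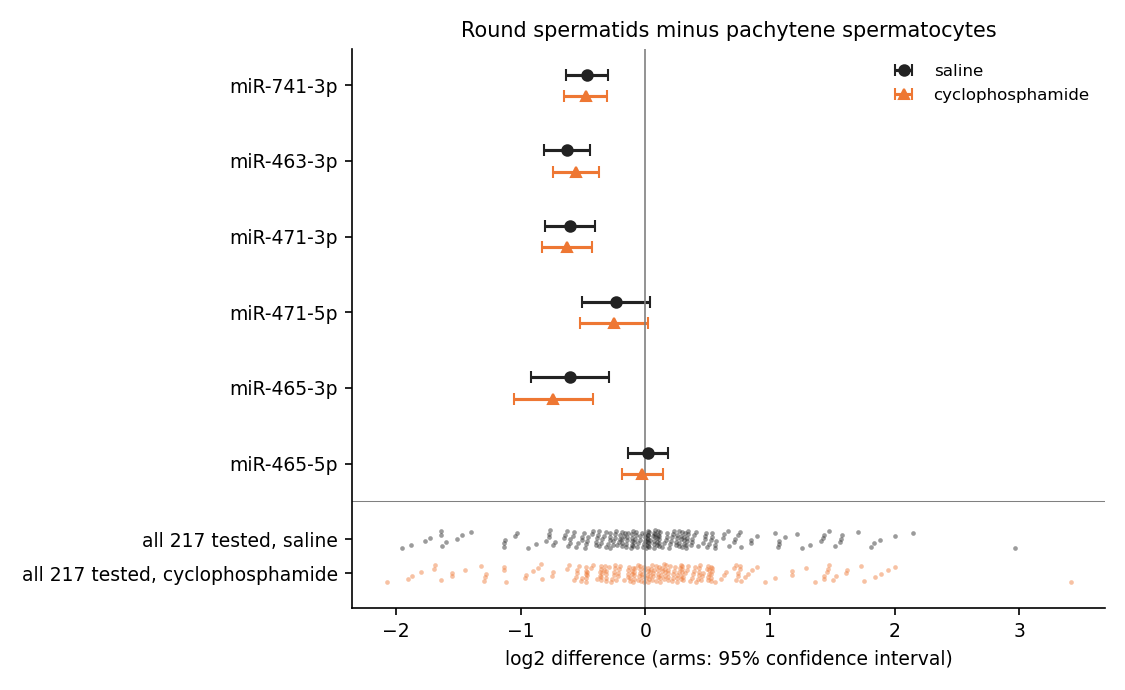
Log2 difference between round spermatids and pachytene spermatocytes (horizontal axis) for the 6 tested arms, with 95% confidence intervals, in saline (circles) and cyclophosphamide (triangles), above the differences of all 217 tested miRNAs (small points, no intervals). The intervals of the 3p arms lie below 0, those of miR-471-5p and miR-465-5p include 0, and all 6 arms lie well inside the range of the 217. With normexp, not drawn, miR-465-3p in saline is at 0.34, where the median of the 217 is 0.44.

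Slide, read from the array headers, was unevenly filled. Slide 3, scanned apart, held 3 saline and 1 cyclophosphamide round spermatid arrays and no pachytene array. With slide as a block, the saline differences of miR-463-3p, miR-741-3p, miR-471-3p and miR-465-3p were -0.68, -0.42, -0.66 and -0.56, and the cyclophosphamide ones -0.58, -0.44, -0.61 and -0.63. Within slide 2, with 1 round spermatid array a treatment, they were -0.81, -0.32, -0.66 and -0.66 in saline and -0.83, -0.64, -0.88 and -0.82 with cyclophosphamide. With slide as a block all 4 passed the limma threshold in both treatments. Within slide 2 the single round spermatid array of a treatment is assumed to vary like the pachytene arrays, so those values are given without a call. Within slide 1 they were -0.45, -0.40, -0.51 and -0.32 in saline, where there was 1 round spermatid array and none passed in limma (adjusted p = 0.0544 to 0.4554). With cyclophosphamide, with 2 pachytene and 3 round spermatid arrays, they were -0.45, -0.36, -0.50 and -0.57, and miR-463-3p (adjusted p = 0.02957) and miR-471-3p (adjusted p = 0.0134) passed. Without slide 3, miR-465-3p in saline did not pass (-0.54, adjusted p = 0.05437).

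The scaling between arrays set the level of these differences. Over 6 other ways of scaling or background correction, the median difference of all 217 miRNAs moved between -1.59 (scaling to spike-in probes) and 0.44 (normexp) in saline, and between -0.72 and 0.00 with cyclophosphamide. The arms miR-463-3p, miR-741-3p and miR-471-3p were called lower under each of them in both treatments, and miR-465-3p under each but normexp. Where the median of all 217 lay below 0, as with spike-in scaling, such a call alone does not set an arm apart from the rest. The arm miR-471-5p was called lower in both treatments under 3 of the 6: the 75th percentile over all gene spots (-0.48 in saline), the total gene signal (-0.48) and spike-in scaling (-2.18). Spike-in scaling also called miR-465-5p lower in saline (-0.49). Relative to that median, over these 6 and the scaling used here, the difference ran from -0.98 to -0.59 for miR-463-3p, from -0.90 to -0.43 for miR-741-3p, from -0.95 to -0.61 for miR-471-3p and from -0.70 to -0.10 for miR-465-3p in saline. With cyclophosphamide it ran, in the same order, from -0.82 to -0.38, -0.74 to -0.33, -0.89 to -0.44 and -0.87 to -0.24.

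In RefSeq the precursors stand along the X chromosome in the order miR-471, miR-3551, miR-741, miR-463, a long non-coding RNA, miR-880, miR-878, miR-881, miR-871, miR-3580 and miR-465. The run goes on beyond miR-471 with miR-883, miR-742, miR-743b and miR-743a. Among the arms between miR-471 and miR-465 that are not members, 11 are on the array and 6 were tested. Of these, miR-881-3p was called lower in saline (-0.33, adjusted p = 0.03858 in limma). The other 5 did not pass: miR-880-3p differed by -0.19, miR-878 by -0.24, miR-871-3p by -0.23, miR-881-5p by -0.07 and miR-3580-3p by 0.21. With cyclophosphamide miR-881-3p was again lower (-0.32, adjusted p = 0.04588) and miR-3580-3p was higher (0.43, adjusted p = 0.01305). Beyond miR-471, miR-742-3p was called lower (-0.57 in saline, -0.47 with cyclophosphamide). So were, in the same order of treatments, miR-743a-5p (-0.56, -0.47), miR-743a-3p (-0.42, -0.55) and miR-743b-3p (-0.31, -0.26). Called higher in both were miR-742-5p (0.27, 0.27) and miR-883-5p (0.27, 0.29). The arms miR-883-3p (-0.19, -0.14) and miR-743b-5p (-0.19, -0.12) passed in neither.

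The wider list of X-linked spermatogenesis miRNAs beside the members, miR-201 and miR-547 included and miR-3551 and miR-3580 left out, had 19 entries on the array and 17 tested. For comparison with the counts of this list and the next, 48 of all 217 were lower and 57 higher in saline, and 50 and 67 with cyclophosphamide. In each treatment 9 of the 17 in this list were lower and 2 higher in round spermatids, with a median difference of -0.31 in saline and -0.32 with cyclophosphamide. The lowest in saline were miR-201-5p (-1.88) and miR-547-3p (-1.73), and the highest were miR-883-5p (0.27) and miR-742-5p (0.27). The other X-linked miRNAs, from clusters such as that of miR-221 and miR-222, had 17 tested, of which 6 were lower and 3 higher in saline and 7 and 3 with cyclophosphamide. The miRNAs miR-221 and miR-222 stand in the spermatogonial list too. Medians of the 17 were -0.29 and -0.27, with miR-221-3p (-1.64) and miR-222-3p (-1.40) lowest and miR-652-5p (0.55) and miR-19b-3p (0.42) highest in saline.

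**Figure D3:**
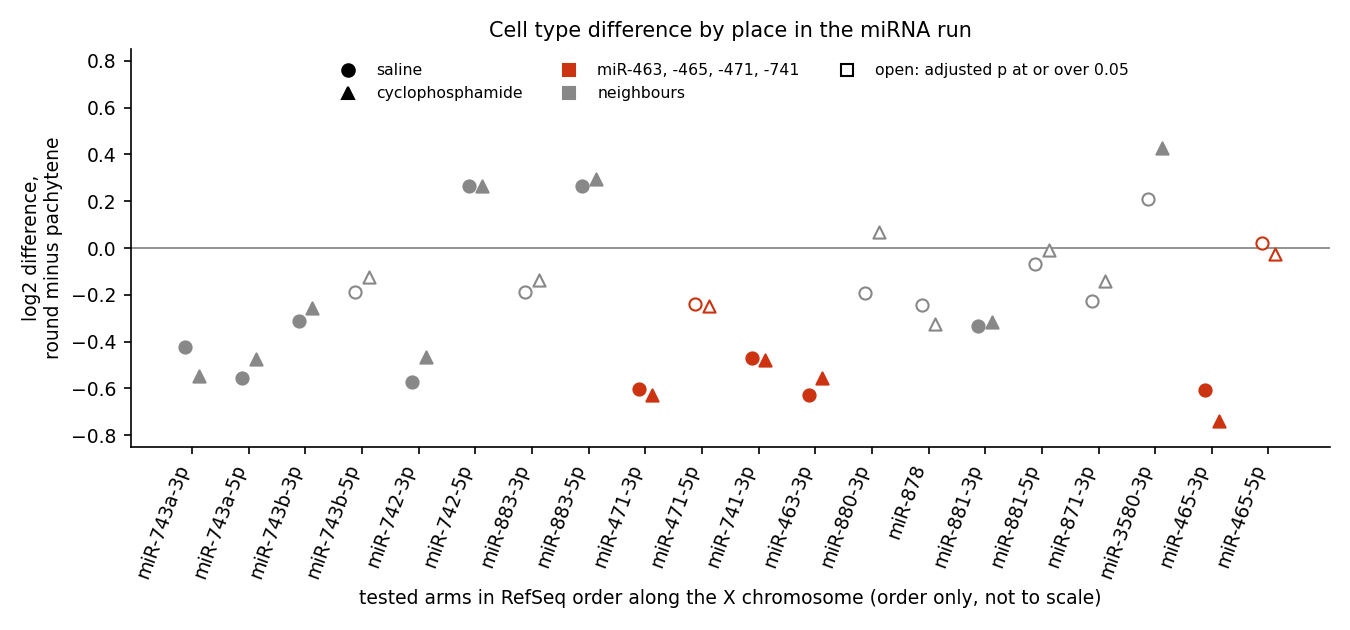
Log2 difference between round spermatids and pachytene spermatocytes (vertical axis) for each tested arm of the run, in RefSeq order along the X chromosome from miR-743a to miR-465 (order only), in saline (circles) and cyclophosphamide (triangles), members in red. Filled symbols passed the threshold. The 3p arms of the 4 precursors lie between -0.74 and -0.47. Among the neighbours, miR-742-3p and both arms of miR-743a lie between -0.57 and -0.42, and the 5p arms of miR-742 and miR-883 lie above 0.

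Within miR-471 the arms parted between cell types. Since each probe has its own brightness, the change of the 3p minus 5p difference between cell types was compared, not its level. This difference was 0.41, 0.46, 0.22, 0.16 and 0.13 in saline pachytene spermatocytes and -0.05, 0.01, -0.10, -0.06 and -0.26 in saline round spermatids, in the same order of rats. With cyclophosphamide it was 0.33, 0.46, 0.20, 0.23 and 0.22 and then 0.07, -0.17, -0.01, -0.31 and -0.04. In both treatments every round spermatid array was below every pachytene array. How many other precursors separated in this way was not counted. By limma over the 33 precursors with both arms tested, the difference changed by -0.37 ± 0.09 (SE; adjusted p = 0.002206) in saline and by -0.38 ± 0.09 (SE; adjusted p = 0.001341) with cyclophosphamide, so the 3p arm fell more than the 5p arm changed. Changes of this kind were common on the array, with 66.7% of the 33 precursors called in saline (13 with the 3p arm relatively lower in round spermatids and 9 with the 5p arm) and 63.6% with cyclophosphamide (14 and 7). The saline change of miR-471 was -0.16 within slide 2 (adjusted p = 0.1957), -0.48 within slide 1 (adjusted p = 0.08581) and -0.30 without slide 3 (adjusted p = 0.07007), each with 1 or 2 round spermatid arrays in limma. With the mean over all probes in place of the brightest, it was -0.68 in saline and -0.73 with cyclophosphamide. The change of an arm thus depends on its probe as well. In saline the probes gave -0.60, -1.02 and -1.34 for miR-471-3p and -0.24 and -0.38 for miR-471-5p. Differences between probes and between arms were not told apart.

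For miR-465 the 3p minus 5p difference changed by -0.62 ± 0.16 (SE; adjusted p = 0.002206 in limma) in saline and by -0.71 ± 0.16 (SE; adjusted p = 0.0007467) with cyclophosphamide. Its saline arrays read 0.998, 0.62, 0.92, 1.46 and 1.34 for pachytene spermatocytes and 0.47, 0.30, 0.51, 0.45 and 0.49 for round spermatids. Its cyclophosphamide arrays read 1.07, 1.01, 1.17, 1.501 and 1.57, and then 0.14, 0.76, 0.43, 0.66 and 0.77. The groups did not overlap in either treatment. Here the 5p arm was at or near the floor, so the change is mostly that of the 3p arm against a constant. With a lower floor (1.61 on the log2 scale) the change was -0.18 in saline (adjusted p = 0.7281) and -0.28 with cyclophosphamide (adjusted p = 0.5545). Neither miR-463 nor miR-741 had both arms tested.

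**Figure D4:**
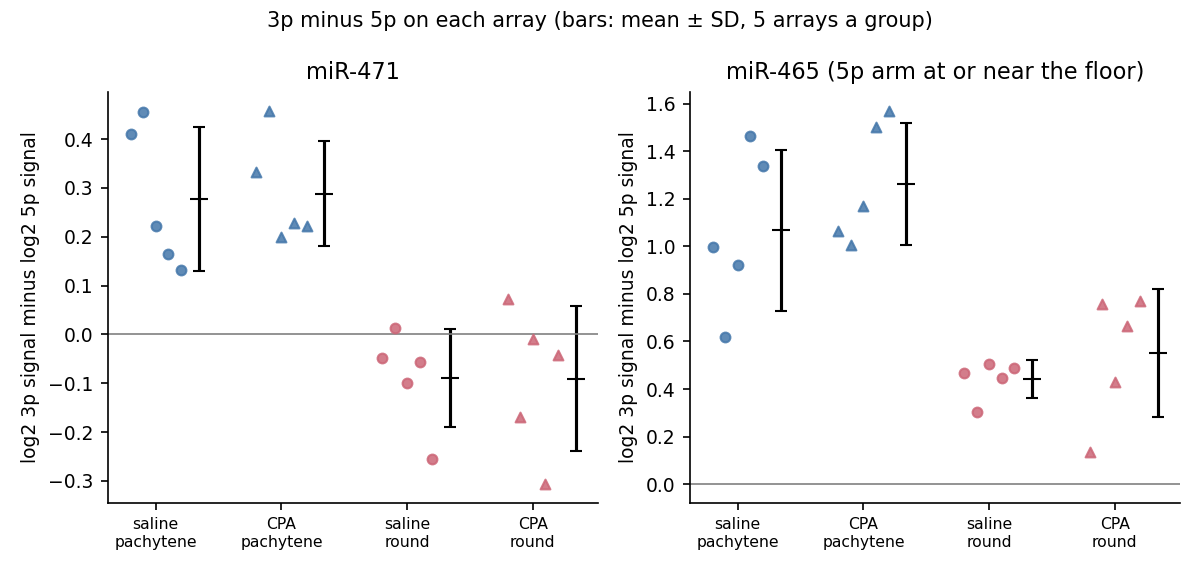
Log2 signal of the 3p arm minus that of the 5p arm (vertical axes) on each array for miR-471 and miR-465, by group (CPA, cyclophosphamide), with mean and SD of 5 arrays as bars. The round spermatid points of miR-471 lie between -0.31 and 0.07, below its pachytene points between 0.13 and 0.46.

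Members were also compared pair by pair for the change between cell types, by exact two-sided permutation tests over the 252 splits of 5 arrays against 5 (smallest p 0.00794), adjusted over 15 pairs in each treatment. In saline 8 pairs differed and with cyclophosphamide 6 did, of which 4 in each treatment involved the floor-bound miR-465-5p. These 4 had the smallest p and entered the same adjustment, so the calls of the other pairs rest in part on them. With the lower floor 0 pairs passed in either treatment, with normexp 0 passed with cyclophosphamide, and without slide 3, where 2 saline round spermatid arrays remain, 0 passed in saline. The lower floor left the differences of miR-463-3p, miR-741-3p, miR-471-3p and miR-471-5p as they were (-0.63, -0.47, -0.60 and -0.24 in saline). Pairs of these arms therefore lost their calls through the adjustment, not through a change in their values. Among the 6 pairs of 3p arms, 1 passed in saline, in an adjustment that includes the 4 pairs with miR-465-5p. There miR-471-3p fell more than miR-741-3p, by -0.13 (exact adjusted p = 0.03401). Over its 3 probes the saline change of miR-471-3p itself ran from -0.60 to -1.34, so this gap was not told apart from one between probes. With cyclophosphamide the gap was -0.15 (exact adjusted p = 0.06803), and no pair of 3p arms passed. The changes of miR-463-3p and miR-471-3p differed by -0.02 in saline and 0.07 with cyclophosphamide (exact adjusted p = 0.7967 and 0.3146). Under the same adjustment, the 5p arm of miR-471 parted from 3 of the 4 3p arms in saline. Minus its own change, that of miR-471-3p was -0.37 (exact adjusted p = 0.01984), that of miR-463-3p -0.39 (exact adjusted p = 0.01984) and that of miR-465-3p -0.37 (exact adjusted p = 0.04464). With cyclophosphamide the first and the last of these passed (exact adjusted p = 0.01984 each) and that with miR-463-3p did not (exact adjusted p = 0.07143). The change of miR-471-5p minus that of miR-741-3p was 0.23 in each treatment and did not pass (exact adjusted p = 0.1299 in saline and 0.07143 with cyclophosphamide).

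Cyclophosphamide against saline asks whether 4 weeks of the drug moved these miRNAs within a cell type. No member was called in pachytene spermatocytes or in round spermatids by limma, and none differed between the cell types in its drug effect. Over all 217 miRNAs 0% were called in each of these 3 comparisons. At an unadjusted p under 0.05, 1, 5 and 1 of the 217 passed, none of them a member.

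In pachytene spermatocytes the drug differences were 0.05 ± 0.09 (SE) for miR-463-3p, 0.03 ± 0.08 for miR-741-3p, 0.02 ± 0.09 for miR-471-3p, 0.00 ± 0.13 for miR-471-5p and 0.19 ± 0.15 for miR-465-3p. Their 95% intervals ran no lower than -0.27 and no higher than 0.50, the upper end for miR-465-3p. For round spermatids the differences were 0.12 ± 0.09 (SE), 0.02 ± 0.08, -0.01 ± 0.09, -0.01 ± 0.13 and 0.05 ± 0.15 in the same order. There the 95% intervals lay between -0.28 and 0.37. For miR-463-3p in round spermatids the interval was -0.07 to 0.31, so a rise over 0.31 on the log2 scale lies outside it. The floor-bound miR-465-5p differed by -0.01 ± 0.08 (SE) and -0.05 ± 0.08. Adjusted p in limma was 1 for all 6 arms in pachytene spermatocytes and at least 0.8481 in round spermatids. The drug effect in round spermatids minus that in pachytene spermatocytes ran from -0.13 ± 0.21 (SE) for miR-465-3p to 0.07 ± 0.13 for miR-463-3p, with adjusted p = 0.9976 for each arm. The 3p minus 5p difference of miR-471 changed with the drug by 0.01 ± 0.09 (SE) in pachytene spermatocytes and by 0.00 ± 0.09 in round spermatids, and 0% of the 33 precursors were called by limma in either.

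**Figure D5:**
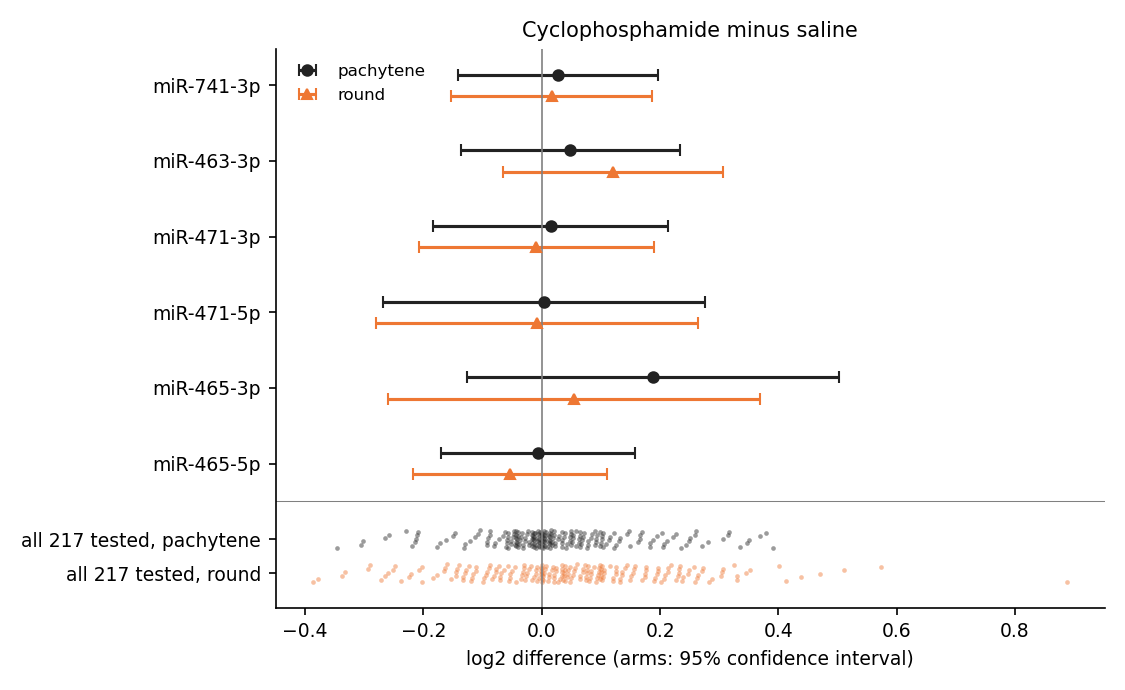
Log2 difference between cyclophosphamide and saline (horizontal axis) for the 6 tested arms, with 95% confidence intervals, in pachytene spermatocytes (circles) and round spermatids (triangles), above the differences of all 217 tested miRNAs (small points, no intervals). All 12 intervals include 0.

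The miRNAs most like each member were ranked by Pearson's r over the 20 arrays among the 211 other tested miRNAs, as a description. These arrays share the cell type split, so r was also taken on deviations from the group means. By level, miR-463-3p was most like miR-742-3p (r = 0.96), miR-743a-5p (0.95) and miR-547-5p (0.94), all of the same X-linked region. The arm miR-465-3p was most like miR-743a-3p (0.96), miR-743a-5p (0.93) and miR-201-3p (0.92), of that region too. The 3 nearest to miR-471-3p were miR-221-3p (0.97), miR-107-3p (0.97) and miR-204-5p (0.96), none of that region. Nearest to miR-741-3p were miR-222-3p (0.96), miR-743a-5p of the same run (0.96) and miR-204-5p (0.95). For miR-471-5p they were miR-881-3p (0.84), miR-743a-3p (0.83) and miR-101b-3p (0.82).

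On deviations from the group means, which leave out the cell type split, the nearest were miR-742-3p to miR-463-3p (r = 0.87), miR-743a-3p to miR-465-3p (0.90), miR-221-3p to miR-471-3p (0.77), miR-743a-5p to miR-741-3p (0.80) and miR-29c-3p to miR-471-5p (0.82). The median r over the 211 lay between -0.12 and 0.07 for these 5 members. Among the members, the deviations of miR-465-3p and miR-471-5p had the highest r (0.85), followed by miR-471-3p with miR-741-3p (0.80) and with miR-471-5p (0.80). Values on an array share its slide, its labelling and its scaling.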

How the data were processed

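Total RNA (100 ng) of 20 germ cell samples was labelled with Cy3 and hybridised to 1-colour Agilent rat miRNA arrays, per the labels' protocols. Spot intensity in the deposited scanner output is background-subtracted and unscaled; the submitters' processing notes name Agilent Feature Extraction 11.5.1.1. For rat 14 (cyclophosphamide, round spermatids) the values are rounded to 3 significant digits. The deposited value table holds log2 values of the authors, centred for each miRNA over the arrays by steps not given in the sources used here. It was an alternative only, and of the members only miR-741-3p matched it by name.

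Each array was scaled to the 75th percentile of its processed signal, taken over the 2176 spots that stood well above background on every array, floored at 12.17 and taken to log2. Control spots and outlier spots were left out, and no gene spot was saturated. Between 18.9% and 31.4% of gene spots per array were well above background. The 20 arrays limit the precision. Spots of a probe were averaged, and the probe with the brightest mean stood for its miRNA. miRNAs are named as on the array.

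The main test was limma (version 3.58.1, R 4.3.3): 1 model of 4 group means with 16 residual degrees of freedom. The same model was fitted to 3p minus 5p differences. Both were tested on simulated data. Figures used Python 3.11.15 and matplotlib 3.10.9, and alignments used Biopython 1.88. The members, lists, naming rules and tests were chosen with earlier results of these data known. From each list, counts, the median and the 2 highest and 2 lowest members in saline were taken, and for likeness the 3 highest correlations. Alternatives covered scaling, background, floor, probe rule, filter, slide, array weights, the rat number as a block and each array left out. The files lack a mean signal column, so normexp used the median signal. No coordinates are given, because the reference table is of another assembly than the array design.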

Additional observations from a re-analysis of the deposited data

Results flagged for a closer look

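Of 32 group checks on member values, 5 had 1 array standing apart from the other 4 by Dixon's criterion, which flags about 1 group in 20 by chance. All 5 concerned miR-465, whose arms are dim. In saline round spermatids the array of rat 16 was highest for miR-465-3p (4.27) and for miR-465-5p (3.97), and lowest for the 3p minus 5p difference (0.30). In saline pachytene spermatocytes rat 25 was highest for miR-465-5p (3.87), and in cyclophosphamide pachytene spermatocytes the earlier rat 16 was (3.82). The 3 values of miR-465-5p are set against arrays at or near the floor of 3.61.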

How the results depend on the processing

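Of 40 alternatives, each result was recomputed under those that apply to it, 29 to 39 a result. Leaving out each array in turn gave 4 to 5 members called between cell types in each treatment, 2 arm pairs, 6 to 8 member pairs in saline and 6 to 7 with cyclophosphamide. The drug comparisons called 0 members under every alternative run. Over all 217 miRNAs, within slide 2, where each treatment has 1 round spermatid array, limma called 27 for the drug in round spermatids and 20 for the difference of drug effects, and no other alternative called any. The drug differences of the members changed sign in 136 of 663 recomputed values, all uncalled. In the authors' table miR-741-3p, the 1 member matched, kept its calls. Spike-in scaling, normexp on the median signal and slide 3 alone (drug comparison in round spermatids) were chosen after seeing the data.

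Normexp gave 1 arm pair called in each treatment and 0 member pairs with cyclophosphamide. It turned miR-465-3p in saline to 0.342, where the median difference of all 217 was 0.44. Spike-in scaling turned miR-465-5p in saline to -0.4854 (adjusted p = 0.03543 in limma), where that median was -1.593. With the mean over all probes 10 member pairs were called with cyclophosphamide. The lower floor left 1 arm pair in each treatment and 0 member pairs in each. Pairs of the brighter arms kept their values there and lost their calls through the adjustment. Testing only miRNAs detected on all arrays left 1 arm pair in each treatment, since miR-465 was then untested. Within slide 1, 0 members and 0 arm pairs were called in saline, with 1 round spermatid array, and 2 members with cyclophosphamide. Within slide 2, 1 arm pair was called in saline. Without slide 3, 1 arm pair and 0 member pairs were called in saline, where 2 round spermatid arrays remained. There the exact test can pass after adjustment only if all 15 pairs reach its smallest p (0.0476). The cause of the other changes was not tested.

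The rat numbers were not shown to pair the cell types: deviations of same-numbered arrays correlated at 0.07, 0.18 and -0.30 for saline rats 16, 25 and 28 and at 0.13 for cyclophosphamide rat 15. With the rat number as a random replicate block, 4 members were called in each treatment. With a fixed replicate block over the 3 saline rats, 2 members and 0 arm pairs were called. The calls of miR-741-3p (-0.47, adjusted p = 0.0894 in limma) and miR-465-3p (-0.51, adjusted p = 0.1829) were lost there.

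Signal over background limits the 5p arms of miR-463, miR-465 and miR-741, whose signals lie at or near the floor.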
